A study of Mus musculus with 4 samples.

Results

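Layer 5/6 near-projecting (NP) neurons were studied as 692 nuclei of 26350 kept nuclei, or 3.86% of 17947 excitatory nuclei, from mouse cortex. The nuclei were chosen by measured values: at least 1 UMI (unique molecular identifier, 1 per captured RNA molecule) of Slc17a7, at most 1 UMI of Gad1 and Gad2 together, and at least 5 UMIs each of Tshz2 and Vwc2l. Kept nuclei had at least 500 detected genes and at most 5% mitochondrial UMIs. The gate held 267 and 232 nuclei in pregnant libraries 1 and 2, against 111 and 82 in non-pregnant libraries 1 and 2.

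Near-projecting neurons are deep-layer excitatory cells whose axons stay mostly within the cortex near the cell body, unlike the long axons of corticothalamic cells and of the extratelencephalic (ET) cells of layer 5. They are a small class, recognised in mouse by the zinc finger gene Tshz2, by Vwc2l, which encodes a secreted protein of the BMP pathway, and by the vesicular glutamate transporter gene Slc17a8 in part of the class. Other genes of the class are Nxph1, which encodes a secreted ligand of alpha-neurexins, and Trhr, which encodes the receptor of thyrotropin-releasing hormone.

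Single-nucleus RNA was compared between 2 pregnant females taken at E13.5, the embryonic day of the litter, and 2 non-pregnant females, all wild-type C57BL/6JRj mice of about 12 weeks, with 1 library per mouse. Nuclei came from microdissected cortex in a medium with actinomycin D, a blocker of transcription. The labels and protocols used here do not say which cortical area was dissected, so a difference in area cannot be told apart from a difference in pregnancy. The libraries held 6357 to 6932 barcodes and 97875766 to 116860425 UMIs. The edgeR and DESeq2 p-values below set the group difference against the spread between these 4 mice, estimated with information shared over genes. The test against other excitatory nuclei used the spread of the differences within each mouse. Fits without a mouse had the spread of the other group alone. Their p-values are therefore no measure of the spread in both groups.

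The gated nuclei were a larger share of excitatory nuclei in both pregnant mice than in either non-pregnant mouse. They made up 6.06% (95% Clopper-Pearson interval 5.38 to 6.81) and 5.29% (4.65 to 6.00) of excitatory nuclei in pregnant mice 1 and 2, and 2.32% (1.92 to 2.79) and 1.87% (1.49 to 2.32) in non-pregnant mice 1 and 2. The intervals cover counting error only. The pregnant mean was 5.68% ± 0.547 and the non-pregnant mean 2.10% ± 0.320 (SD, n = 2 each), a ratio of 2.71. The groups did not overlap, and the exact two-sided permutation p was 0.333, the smallest that 2 against 2 mice can give. Of all kept nuclei the shares were 4.07% and 3.47% in pregnant mice, against 1.62% and 1.31% in non-pregnant mice.

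The number of gated nuclei depended on the thresholds. With both thresholds at 3 UMIs the gate held 392 and 319 nuclei in pregnant mice and 135 and 110 in non-pregnant mice. With both at 8 UMIs it held 186 and 180 in pregnant mice and 86 and 69 in non-pregnant mice. Nuclei whose lower count of Tshz2 and Vwc2l was exactly 5 UMIs, just inside, numbered 30 and 24 in pregnant mice and 11 and 4 in non-pregnant mice. Nuclei with 4 UMIs, just outside, numbered 44 and 26 in pregnant mice and 9 and 11 in non-pregnant mice. Gated nuclei had a median of 36 and 38 Tshz2 UMIs in pregnant mice and 31 and 37 in non-pregnant mice. Their median Vwc2l count was 13 and 14.5 UMIs in pregnant mice and 13 and 21 in non-pregnant mice. The depth of the gated nuclei varied without an order by group, with a median of 20572 and 17881.5 UMIs in pregnant mice and 12437 and 21495.5 in non-pregnant mice. Free RNA was not subtracted from these counts.

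The label held for 358 of the 692 gated nuclei, and for a smaller share of them in pregnant mice. Clustering of all excitatory nuclei gave 27 clusters, and Tshz2 was among the leading genes of numbers 12, 13, 14, 15 and 24. Only number 12 had Nxph1, Tshz2 and Vwc2l together among its leading genes. This L5/6 NP-like cluster had 61.8 CPM of Slc17a8 and 154 CPM of Lypd1, which encodes a modulator of nicotinic receptors. CPM are UMIs of a gene per 1e6 UMIs of the sum, with scaled totals for values per library. The cluster held 112 and 114 gated nuclei in pregnant mice, or 41.9% and 49.1% of the gate. It held 83 and 49 in non-pregnant mice, or 74.8% and 59.8%. The groups did not overlap in this share, with an exact permutation p of 0.333, and 334 gated nuclei lay outside the cluster.

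Less was found of Slc17a8, Nxph1 and Lypd1, markers that the gate did not use, in gated nuclei outside the cluster. Slc17a8 was at 0.212 and 3.69 CPM there in pregnant mice and at 0 in both non-pregnant mice, against 35.3 and 58.7 CPM inside the cluster in pregnant mice and 47.5 and 67.2 CPM inside it in non-pregnant mice. Nxph1 was at 119 and 186 CPM outside in pregnant mice and 264 and 25.8 CPM in non-pregnant mice. Inside it was at 1825 CPM or more in all 4 mice. Nxph1 is a leading gene of the cluster, so its contrast follows in part from the clustering. A UMI of Lypd1 was found in 30.3% and 30.5% of nuclei outside in pregnant mice and 32.1% and 18.2% in non-pregnant mice. Inside the shares were 82.1% and 78.1% in pregnant mice and 71.1% and 71.4% in non-pregnant mice. The summed level of 10 NP marker genes, the 2 gate genes among them, was 7142 and 7363 CPM inside the cluster in pregnant mice and 6804 and 7722 CPM in non-pregnant mice. Outside it was 1852 and 2061 CPM in pregnant mice and 1584 and 1449 CPM in non-pregnant mice. Tshz2 and Vwc2l made up most of these sums. Nuclei outside were also deeper, with median UMI counts of 26533 and 25209 in pregnant mice and 21808 and 30000 in non-pregnant mice, against 12994 and 13448.5 inside in pregnant mice and 11416 and 14592 inside in non-pregnant mice.

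The other gated nuclei lay in several clusters. Cluster 8, led by Bcl11b, Npsr1, Reln and Parm1, held 42 and 42 gated nuclei in pregnant mice and 19 and 22 in non-pregnant mice. Cluster 13, led by Tshz2 and Il1rapl2, held 24 and 25 in pregnant mice and none in non-pregnant mice, and cluster 14, led by Cpa6 and Htr2c, held 15 and 9 against none. Cluster 2, led by Ccbe1 and with Otof and Calb1, held 26 and 5 in pregnant mice against none, and cluster 4, with the corticothalamic genes Foxp2 and Syt6, held 23 and 6 in pregnant mice against 3 and 0 in non-pregnant mice. Clusters with oligodendrocyte genes (number 17, with St18 and Mog) or the astrocyte gene Slc1a3 (number 18) held 8 and 15 in pregnant mice and 2 and 3 in non-pregnant mice.

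Tshz2 by itself was high in a far wider set of nuclei in pregnant mice. Excitatory nuclei with at least 5 Tshz2 UMIs and too little Vwc2l for the gate numbered 944 and 896 in pregnant mice, or 21.4% and 20.4% of excitatory nuclei, against 97 and 63 in non-pregnant mice, or 2.03% and 1.44%. The groups were far apart, and the exact permutation p was again the smallest possible, 0.333. The 4 clusters other than the NP-like one that had Tshz2 at 1000 CPM or more (1473 to 2222 CPM), with Slc17a8 at 0.658 CPM or less, held 522 and 486 nuclei in pregnant mice and 13 and 0 in non-pregnant mice, of which the gate took 41 and 37 in pregnant mice and none in non-pregnant mice. The part that such nuclei play in the larger gate share of pregnant mice was not tested. Inside the NP-like cluster alone, gated nuclei were 2.54% and 2.60% of excitatory nuclei in pregnant mice and 1.74% and 1.12% in non-pregnant mice, a ratio of 1.80, given as a description because Sntb1, one of the leading genes of the cluster, itself differed between the groups.

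**Figure D1:**
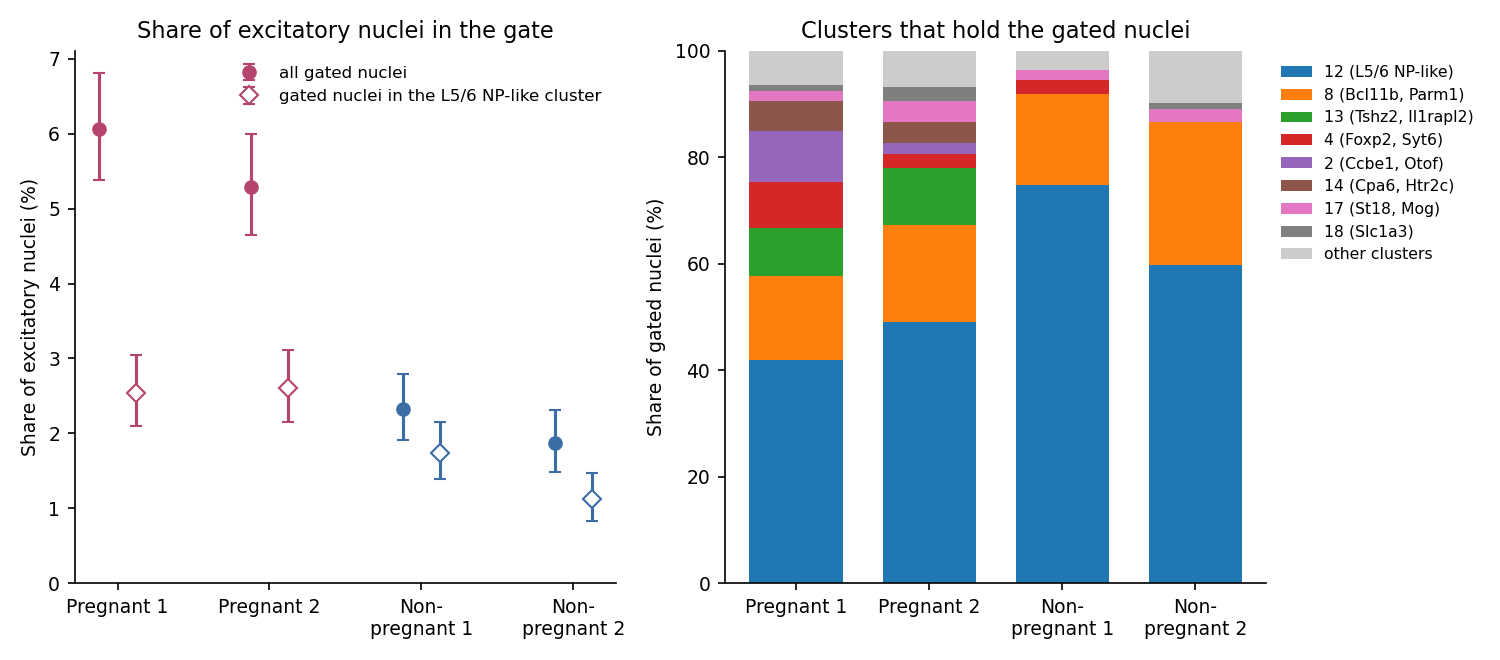
Left, share of excitatory nuclei in each library (%, points with 95% Clopper-Pearson intervals) that met the gate (filled) or met it and lay in the L5/6 NP-like cluster (open). Right, share of the gated nuclei of each library (%) in each cluster, with 2 of its leading genes. The gate shares of the pregnant libraries, 6.06% and 5.29%, lie above those of the non-pregnant libraries, 2.32% and 1.87%, and the NP-like cluster holds 41.9% and 49.1% of the gate in pregnant libraries against 74.8% and 59.8% in non-pregnant libraries.

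The gate therefore mixed cell classes, and more so in pregnant mice. Pregnancy effects were tested in all gated nuclei and also in those of the NP-like cluster alone, a restriction chosen after seeing the data. The markers of the gate are given as levels with no test. In the cluster, Tshz2 was at 3396 and 3458 CPM in pregnant mice and 2930.3 and 3385 CPM in non-pregnant mice, and Vwc2l at 1507 and 1676 CPM in pregnant mice and 1303 and 1441 CPM in non-pregnant mice. Over all gated nuclei Slc17a7 was at 182 and 167 CPM in pregnant mice and 209 and 190.3 CPM in non-pregnant mice. Gad1 and Gad2 stayed at 2.93 CPM or less in every library.

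Raw UMIs were summed per mouse and tested with edgeR's quasi-likelihood test. In all gated nuclei 259 of 12563 tested genes (2.06%) passed adjusted p below 0.05, of which 165 rose (1.31%) and 94 fell (0.748%) in pregnant mice. In the gated nuclei of the NP-like cluster 30 of 9766 tested genes (0.307%) passed, of which 25 rose (0.256%) and 5 fell (0.0512%). The groups did not overlap in CPM for any of the 259 or of the 30. Choice by a small p makes this likely, so it adds no support, and the share among all tested genes was not counted. The 2 sets shared 18 genes, which are 60% of the cluster calls and 6.95% of the gate calls, although 217 of the 259 were tested in the cluster. At an unadjusted p below 0.05 there were 1433 genes in all gated nuclei and 690 in the cluster. The summed counts were smaller in the cluster, with 1886419 and 1714234 UMIs in pregnant mice and 1095848 and 857631 in non-pregnant mice. The count of calls moved by more than 1.5 times without non-pregnant mouse 1 (538 genes in all gated nuclei and 153 in the cluster) or non-pregnant mouse 2 (566 and 61), and in the cluster also without pregnant mouse 1 (57) or pregnant mouse 2 (73).

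Within the NP-like cluster the genes with the smallest p included Egfem1, Alk, Gpc5 and Zfpm2, all of them higher in pregnant mice. Egfem1, which encodes a protein with EGF-like and EMI domains, was at 449.7 and 406 CPM in pregnant mice and at 33.8 and 59.98 CPM in non-pregnant mice. Both pregnant values were more than 6 times either non-pregnant value. Its log2 fold change was 3.23 ± 0.19 (SE), or 9.37-fold, with an edgeR adjusted p of 8.74e-08. Alk, which encodes a receptor tyrosine kinase, was at 119 and 115 CPM in pregnant mice and at 17.4 and 6.00 CPM in non-pregnant mice, a log2 fold change of 3.23 ± 0.28 (edgeR adjusted p = 5.89e-06). Gpc5, which encodes a heparan sulphate proteoglycan of the glypican family, was at 162 and 243 CPM in pregnant mice and at 27.4 and 30.0 CPM in non-pregnant mice, a log2 fold change of 2.82 ± 0.23 (edgeR adjusted p = 5.13e-06). In the whole gate Gpc5 was not called (0.57 ± 0.21, edgeR adjusted p = 0.359). For both Alk and Gpc5 the lowest pregnant cluster value was more than 5 times the highest non-pregnant value.

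Zfpm2 encodes a cofactor of GATA transcription factors that is also known as FOG2. It was at 276 and 285 CPM in pregnant NP-like nuclei and at 64.0 and 54.0 CPM in non-pregnant ones. The groups were well apart, and the log2 fold change was 2.24 ± 0.15 (edgeR adjusted p = 3.77e-07). The gene also rose in all gated nuclei (774 and 654 CPM in pregnant mice, 116 and 62.7 CPM in non-pregnant mice) and in the other excitatory nuclei (log2 fold change 1.37, edgeR adjusted p = 0.00145). Il1rapl2, which encodes a synaptic adhesion protein of the interleukin-1 receptor family, was at 113 and 108 CPM in pregnant NP-like nuclei and at 21.9 and 40.8 CPM in non-pregnant ones (log2 fold change 1.86 ± 0.23, edgeR adjusted p = 0.000265).

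A pair of genes of the dystrophin-associated complex rose as well. Sgcz, which encodes zeta-sarcoglycan, was at 2336 and 2101 CPM in pregnant NP-like nuclei and at 992 and 758 CPM in non-pregnant ones. Its log2 fold change was 1.34 ± 0.14 (edgeR adjusted p = 5.27e-05). Sntb1, which encodes beta-1-syntrophin, was at 184 and 231 CPM in pregnant nuclei and at 71.3 and 50.4 CPM in non-pregnant ones (log2 fold change 1.75 ± 0.18, edgeR adjusted p = 5.27e-05). Both pregnant mice lay above both non-pregnant mice for each gene. Over all gated nuclei Sgcz was called too (0.68 ± 0.14, edgeR adjusted p = 0.0133) and Sntb1 was not (0.95 ± 0.28, edgeR adjusted p = 0.23). Further rises in the cluster were those of the secreted follistatin-like gene Fstl5 (297 and 263 CPM in pregnant, 99.6 and 58.8 CPM in non-pregnant mice), of Luzp2 (238 and 273 CPM against 117.9 and 84.0 CPM), of Pdzrn4 (255 and 262 CPM against 82.2 and 119 CPM) and of the heparan sulphate sulphotransferase gene Ndst3 (146 and 141 CPM against 81.3 and 82.8 CPM). The ryanodine receptor gene Ryr3 (log2 fold change 0.94), the glycosyltransferase gene Galnt17 (1.14), the kinase genes Hunk (1.87) and Pip5k1b (1.46), Khdrbs2 (0.65) and Hmga2 (1.00) also rose. The call of Khdrbs2 was lost without pregnant mouse 1 (edgeR adjusted p = 0.0516) and that of Hmga2 without pregnant mouse 2 (0.191). In the whole gate Ryr3, Galnt17 and Hmga2 were not called (edgeR adjusted p = 0.356, 0.262 and 0.784), and Fstl5, Luzp2, Pdzrn4, Ndst3, Hunk, Pip5k1b and Khdrbs2 were. DESeq2 did not call Ndst3 (adjusted p = 0.136) or Hmga2 (0.136) in the cluster, and gave no adjusted p for Hunk and Pip5k1b.

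The 5 genes that fell in the cluster were Cntnap5a, Arhgap15, Oprm1, Ptprt and 1 predicted gene. Cntnap5a, which encodes a cell adhesion protein of the neurexin family, was at 414 and 369.8 CPM in pregnant mice and at 766 and 816 CPM in non-pregnant mice. Both pregnant values were below both non-pregnant values, with a log2 fold change of -1.01 ± 0.12 (edgeR adjusted p = 0.000256). Its level in all gated nuclei was nearly the same, 401 and 374 CPM in pregnant mice against 792 and 815 CPM in non-pregnant mice (-1.05 ± 0.11, edgeR adjusted p = 1.82e-05). Arhgap15, which encodes a GTPase-activating protein for Rac, was at 46.3 and 38.4 CPM in pregnant nuclei and at 115 and 133 CPM in non-pregnant ones (-1.54 ± 0.18, edgeR adjusted p = 0.00021). Oprm1, the mu opioid receptor gene, was at 25.9 and 19.8 CPM in pregnant nuclei against 47.5 and 68.4 CPM in non-pregnant ones (-1.31 ± 0.26, edgeR adjusted p = 0.0367). Ptprt, which encodes a receptor tyrosine phosphatase, was at 535 and 476 CPM against 720.0 and 887 CPM (-0.66 ± 0.13, edgeR adjusted p = 0.0372). Of these, the calls of Oprm1 and Ptprt were lost without pregnant mouse 2 (edgeR adjusted p = 0.0513 and 0.109) or non-pregnant mouse 2 (0.0719 and 0.0757). DESeq2 did not call Oprm1 (adjusted p = 0.0964). Over all gated nuclei Arhgap15 also fell (-0.99 ± 0.16, edgeR adjusted p = 0.00411), and Oprm1 and Ptprt were not called (edgeR adjusted p = 0.45 and 0.112).

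A few called genes rested on counts near zero in non-pregnant mice. Ttc6 had 64 UMIs over the NP-like nuclei of the pregnant mice and 2 over those of the non-pregnant mice, a ratio of 17.4 per UMI sequenced (95% counting interval 4.61 to 146). Angpt1, which encodes the ligand angiopoietin-1, had 66 and 2 UMIs (ratio 17.9, 4.76 to 151). Vwc2 and the beta-globin gene Hbb-bs, a red cell gene, each had 44 UMIs in pregnant and 1 in non-pregnant nuclei (ratio 23.9, 4.07 to 964). Hbb-bs also rose in the other excitatory nuclei (9.69 and 9.37 CPM in pregnant mice, 1.34 and 0.813 CPM in non-pregnant mice). The part of blood RNA in these counts was not tested. The Hbb-bs and Vwc2 calls were lost without pregnant mouse 1 (edgeR adjusted p = 0.434 and 0.726) or pregnant mouse 2 (0.178 and 0.0561). DESeq2 gave no adjusted p for these 4 genes in the cluster. Over all gated nuclei Angpt1, Vwc2 and Hbb-bs were called too (edgeR adjusted p = 0.0147, 0.00663 and 0.00114), and Ttc6 was not (0.0754).

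**Figure D2:**
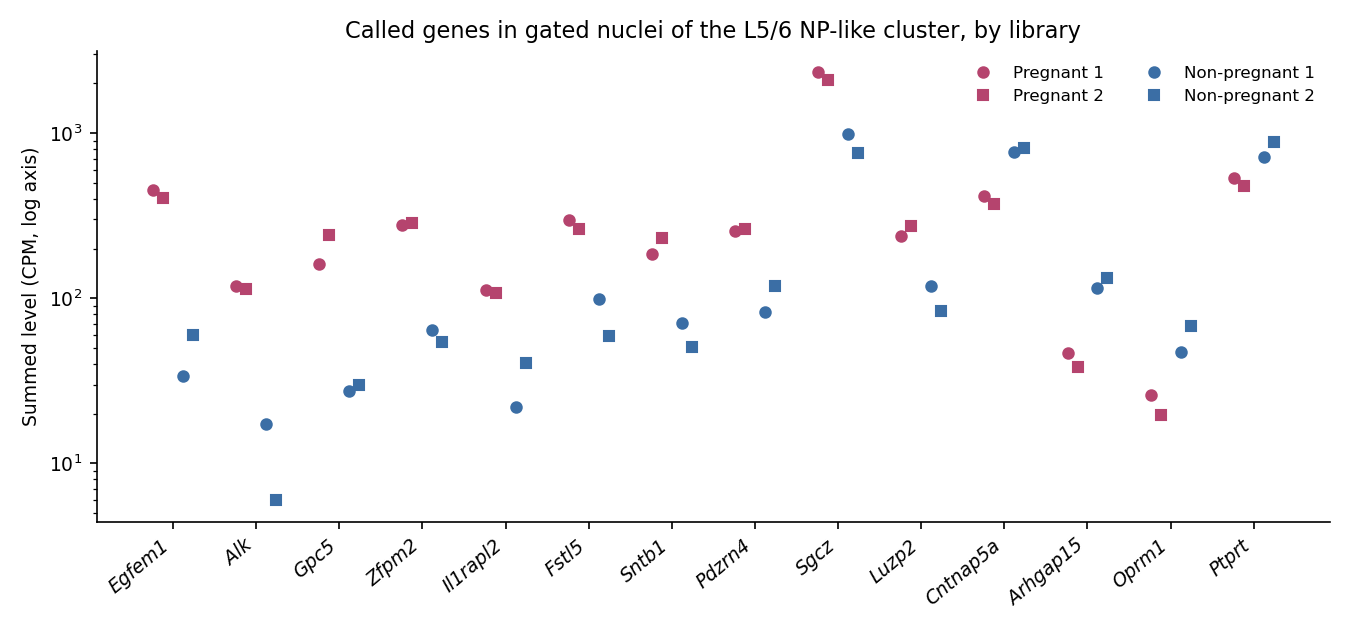
Summed level (CPM, log axis) of 14 called genes in the gated nuclei of the L5/6 NP-like cluster, 1 point per library. For each gene both pregnant points lie on one side of both non-pregnant points, above for the first 10 genes (Egfem1 449.7 and 406 against 33.8 and 59.98 CPM) and below for the last 4 (Cntnap5a 414 and 369.8 against 766 and 816 CPM).

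Egfem1 was not raised evenly over the NP-like nuclei. After thinning each nucleus to 5000 UMIs, which left out 2 pregnant and 1 non-pregnant nuclei, 45.5% and 43.8% of NP-like nuclei had an Egfem1 UMI in pregnant mice, against 4.88% and 14.3% in non-pregnant mice. Before thinning the shares were 51.8% and 51.8% in pregnant mice, against 13.3% and 30.6% in non-pregnant mice. At least 3 thinned UMIs were found in 31.2% and 25.9% of NP-like nuclei in pregnant mice and in none of 82 and 49 in non-pregnant mice, where none of that many allows up to 3.66% and 6.12%. Oligodendrocytes, with a median depth of 3389 to 4459 UMIs, were used as a background for free RNA, and for this both were thinned to 2000 UMIs. At that depth Egfem1 was found in 38.4% and 36.8% of NP-like nuclei in pregnant mice and 4.82% and 4.08% in non-pregnant mice. In oligodendrocytes it was found in 2.16% and 3.41% of nuclei in pregnant mice and 0.875% and 1.45% in non-pregnant mice. Zfpm2 was found in 33.9% and 28.1% of NP-like nuclei in pregnant mice and 12.0% and 8.16% in non-pregnant mice, against 17.3% and 11.4% of oligodendrocytes in pregnant mice and 14.6% and 15.4% in non-pregnant mice. The non-pregnant NP-like shares of Zfpm2 were thus no higher than those of oligodendrocytes, and the pregnant ones were above them. Whether Zfpm2 in oligodendrocytes was free RNA or their own was not tested, so these shares set no background for this gene.

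The nuclei with Egfem1 differed from the rest of the cluster in other genes too. This is a description of nuclei within each mouse, with no test. In pregnant mouse 1, Gpc5 was found in 45.1% of 51 nuclei with Egfem1 and in none of 61 without. In pregnant mouse 2 it was found in 42.9% of 49 nuclei with Egfem1 and in 9.52% of 63 without. Sgcz was found in 98.0% and 89.8% of nuclei with Egfem1 and in 67.2% and 65.1% of those without, in pregnant mice 1 and 2. Alk was found in 31.4% and 55.1% of nuclei with Egfem1 and in 16.4% and 9.52% of those without. Zfpm2 and Fstl5 were likewise more frequent among the nuclei with Egfem1.

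Cntnap5a and some markers of the class were less frequent among the nuclei with Egfem1. Cntnap5a was found in 29.4% and 30.6% of nuclei with Egfem1 in pregnant mice 1 and 2, and in 63.9% and 55.6% of those without. Slc17a8 was found in 5.88% and 12.2% of nuclei with Egfem1 and in 27.9% and 34.9% of those without. The 8 NP markers that the gate did not use summed to a mean of 8.80 and 7.84 thinned UMIs per nucleus with Egfem1 and to 14 and 14.1 per nucleus without. Nxph1 was found in 74.5% and 77.6% of the nuclei with Egfem1, against 20.6% and 28.0% of gated nuclei outside the cluster. It is a leading gene of the cluster, so this contrast follows in part from the clustering and is no separate evidence of their class. Oprm1 and Arhgap15, also called lower in pregnant nuclei, showed no such pattern. Oprm1 was found in 13.7% and 10.2% of nuclei with Egfem1 and in 4.92% and 6.35% of those without, and Arhgap15 in 15.7% and 6.12% against 13.1% and 7.94%. In non-pregnant mice only 4 and 7 NP-like nuclei had Egfem1, too few to describe in this way.

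Several values move with the Egfem1 nuclei. Gated nuclei outside the cluster had Egfem1 at 1355 and 1627 CPM in pregnant mice and at 1034 and 859 CPM in non-pregnant mice, and Gpc5 and Sgcz were also higher outside than inside in every mouse. Alk was not, at 15.04 and 11.6 CPM outside in pregnant mice and 15.4 and 17.2 CPM in non-pregnant mice, against 119 and 115 CPM inside in pregnant mice. Fstl5 and Sntb1 were also higher inside than outside in pregnant mice. Nuclei in the top 5% of a simulated-doublet score were 10 of 51 and 5 of 49 nuclei with Egfem1 and 1 of 61 and 1 of 63 without. Raw depth was similar, with a median of 13730 and 13361 UMIs with Egfem1 and 12135 and 13638 without. Without the top doublet scores all 30 genes were still called in the cluster, among 87 in all, with log2 fold changes of 3.92 for Egfem1, 3.43 for Alk and 2.18 for Sgcz by edgeR.

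**Figure D3:**
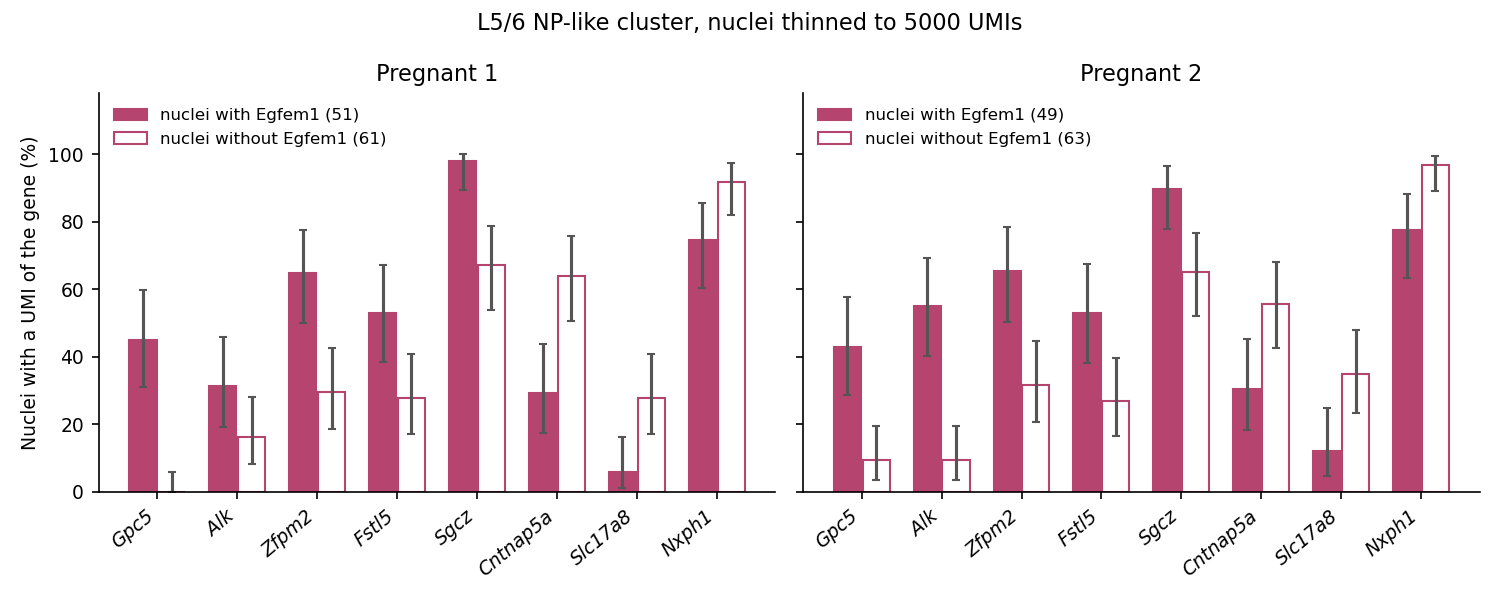
Share of NP-like gated nuclei (%, bars with 95% Clopper-Pearson intervals, nuclei thinned to 5000 UMIs) with a UMI of each gene in pregnant libraries 1 and 2, for nuclei with an Egfem1 UMI (filled) and without one (open). Gpc5, Alk, Zfpm2, Fstl5 and Sgcz are more frequent with Egfem1, and Cntnap5a, Slc17a8 and Nxph1 less frequent, in both libraries; for Gpc5 the shares are 45.1% against 0 of 61 and 42.9% against 9.52%.

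In all gated nuclei the gene with the smallest p was Zfp804b, a zinc finger gene. It was at 401 and 324 CPM in pregnant mice and 63.7 and 68.5 CPM in non-pregnant mice, with a log2 fold change of 2.46 ± 0.14 (edgeR adjusted p = 5.24e-09). In the NP-like cluster it was at 77.8 and 70.4 CPM in pregnant mice and 71.3 and 119 CPM in non-pregnant mice, where the groups overlapped (-0.33 ± 0.21, edgeR adjusted p = 0.815). Gated nuclei outside the cluster had 521 and 439 CPM of it in pregnant mice and 56.1 and 29.7 CPM in non-pregnant mice. The sortilin-family receptor gene Sorcs3 behaved alike, with a log2 fold change of 1.34 ± 0.13 in all gated nuclei (edgeR adjusted p = 7.53e-06) and of -0.034 ± 0.52 in the cluster (edgeR adjusted p = 0.996).

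Of the 12 named genes that rose in all gated nuclei, 5 were also called in the cluster, namely Egfem1, Ndst3, Il1rapl2, Alk and Pdzrn4. The others were Zfp804b, Sorcs3, Dkk3, Sphkap, Rgs20, Crim1 and L3mbtl4. Their cluster log2 fold changes ran from -0.40 for Sphkap to 1.16 for Crim1, none of them called, and L3mbtl4 was too low to be tested there. Egfem1 itself had a smaller change in all gated nuclei, 1112 and 1246 CPM in pregnant mice against 418 and 499.7 CPM in non-pregnant mice (1.36 ± 0.12, edgeR adjusted p = 6.99e-06).

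Of the 12 named genes that fell, Cntnap5a alone was also called in the cluster. Dkk2, which encodes a secreted regulator of Wnt signalling, was at 22.1 and 16.0 CPM over all gated nuclei in pregnant mice and at 72.3 and 65.9 CPM in non-pregnant mice (-1.85 ± 0.17, edgeR adjusted p = 6.99e-06). In the cluster it was at 76.7 and 37.2 CPM in pregnant mice and 119.7 and 146 CPM in non-pregnant mice, groups that did not overlap but did not pass (-1.21 ± 0.30, edgeR adjusted p = 0.283). Several of the genes that fell over the whole gate are genes of the NP class. Nxph1 was at 614 and 698 CPM in pregnant and 1398 and 1109 CPM in non-pregnant mice (-0.93 ± 0.13, edgeR adjusted p = 0.000361), and in the cluster at 1886 and 1825 CPM against 2195 and 2492 CPM (-0.34 ± 0.12, edgeR adjusted p = 0.452). Trhr was at 20.4 and 27.9 CPM in pregnant and 55.6 and 55.9 CPM in non-pregnant mice (-1.21 ± 0.18, edgeR adjusted p = 0.000563), and in the cluster at 65.7 and 70.4 CPM against 91.4 and 126 CPM (-0.66 ± 0.18, edgeR adjusted p = 0.208).

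The remaining genes of this group were Tgfbr1, a receptor gene of the TGF-beta pathway, the Notch ligand gene Dner, the collagen gene Col6a1, the semaphorin gene Sema6a, Rxfp2, the receptor gene of insulin-like peptide 3, Myzap, the cadherin gene Cdh18 and Klhl1. Their log2 fold changes over all gated nuclei ran from -1.74 for Rxfp2 to -0.82 for Cdh18. In the cluster they ran from -1.30 for Rxfp2 (edgeR adjusted p = 0.0945) to -0.25 for Sema6a, and Klhl1 was too low to be tested. None of the 7 tested there passed.

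**Figure D4:**
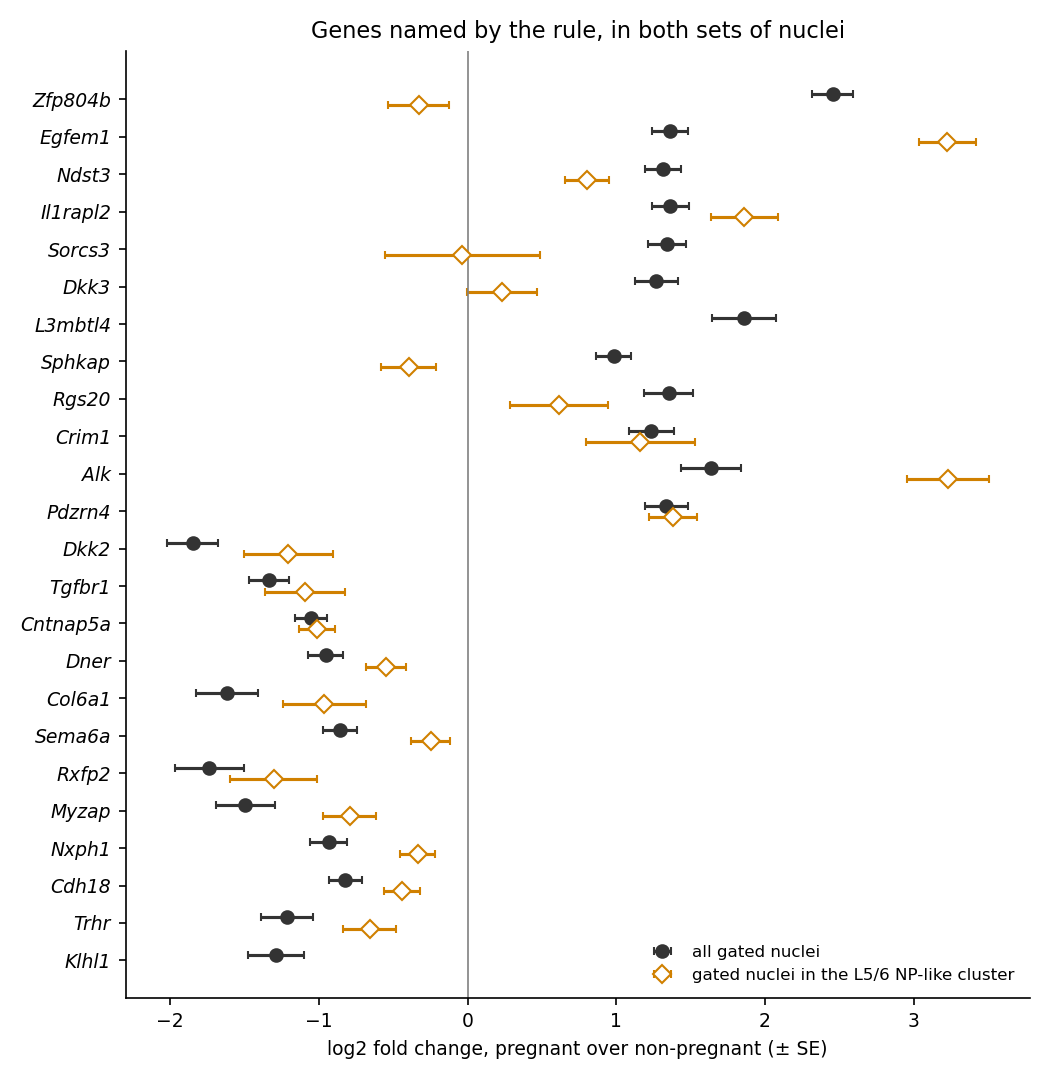
Log2 fold change (pregnant over non-pregnant, ± SE, edgeR) of the 24 named genes in all gated nuclei (filled) and in those of the L5/6 NP-like cluster (open). Egfem1 and Alk changed more in the cluster (3.23 each) than in the whole gate (1.36 and 1.64), whereas Zfp804b was at 2.46 in the gate and at -0.33 in the cluster.

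The NP markers were called in all gated nuclei only as the falls of Nxph1 and Trhr, 2 of 8 tested, with a median log2 fold change of -0.83 over the list against -0.0044 over all tested genes. In the cluster 0 of 7 were called, with a median of -0.27 against 0.0029. Over all tested genes 2.06% were called in the gate and 0.307% in the cluster. Among the members that were not called, Lypd1 was at 166 and 201 CPM in pregnant and 162 and 127 CPM in non-pregnant NP-like nuclei, where the groups did not overlap, and Slc17a8 at 35.3 and 58.7 CPM against 47.5 and 67.2 CPM, where they did. Their edgeR adjusted p-values in the cluster were 0.693 and 0.926.

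Markers of other excitatory classes were called more in the gate than in the cluster. So were genes at large, with 2.06% of all tested genes called in the gate and 0.307% in the cluster. Among intratelencephalic (IT) markers 2 of 10 rose in all gated nuclei, Enpp2 and Deptor, and 0 of 7 in the cluster. Bcl11b, 1 of 8 tested layer 5 ET markers, fell in all gated nuclei, and 0 of 2 were called in the cluster. The call of Bcl11b was lost without pregnant mouse 1 (log2 fold change -0.35). Bcl11b was also among the leading genes of the NP-like cluster, so its fall does not single out ET cells. Synpr, 1 of 4 markers of Car3 and claustrum neurons, rose in all gated nuclei, and the 1 tested in the cluster was not called. None of 6 corticothalamic and layer 6b markers was called, nor the 1 thalamic marker tested, nor any of 6 interneuron markers, and in the cluster none of 4, 1 and 3. Summed over their lists, IT markers were at 477 to 650.0 CPM in pregnant and 537 to 621 CPM in non-pregnant NP-like nuclei, and ET markers at 342 to 345 CPM against 324 to 391 CPM, with Chrna6 at 0.

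Markers of cells that are not neurons overlapped between groups in the cluster, or were low there and higher in pregnant mice. Oligodendrocyte markers summed to 66.9 to 73.4 CPM in pregnant and 50.4 to 67.6 CPM in non-pregnant NP-like nuclei, microglial markers to 44.2 to 50.8 CPM against 45.6 to 51.2 CPM, and vascular markers to 9.38 to 12.8 CPM against 2.74 to 6.00 CPM, with Cldn5, Dcn and Col1a1 at 0. Astrocyte markers summed to 917 to 961 CPM against 803 to 933 CPM, nearly all of it Slc1a2, a gene that neurons also transcribe. None of the 6 oligodendrocyte, 3 microglial, 1 vascular, 3 astrocyte and 1 oligodendrocyte precursor markers tested in all gated nuclei was called. In that set 2.06% of all tested genes were called. Precursor markers summed to 8.28 to 22.7 CPM in pregnant and 3.65 to 4.798 CPM in non-pregnant NP-like nuclei. Of erythroid markers Hbb-bs alone was called, and the list summed to 22.7 to 28.1 CPM against 3.60 to 11.0 CPM.

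Genes of synaptic adhesion and of axon guidance gave 9 calls each in all gated nuclei. Of 44 tested in all gated nuclei 6 rose, among them Il1rapl2, Sorcs3, Cntn4 and Flrt2, and 3 fell, among them Nxph1 and Cntnap5a. In the cluster 2 of 42 rose, Il1rapl2 and Lrrtm4, and Cntnap5a fell. Lrrtm4, which encodes a postsynaptic leucine-rich repeat protein, was at 1676 and 1246 CPM in pregnant and 865 and 831 CPM in non-pregnant NP-like nuclei (0.78 ± 0.14, edgeR adjusted p = 0.0175), and over all gated nuclei its groups overlapped. Its call in the cluster was lost without pregnant mouse 1 (edgeR adjusted p = 0.118), and so was that of Flrt2 over the gate (0.17). The medians of the list were -0.0035 in all gated nuclei and 0.00094 in the cluster. The called share of all tested genes was 2.06% in the gate and 0.307% in the cluster.

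Of 44 axon guidance genes 5 rose in all gated nuclei, among them Nrp2, Ephb1, Slit3 and Sema6d, and 4 fell, among them Sema6a and Slit1. Beside these and the cadherin counts below, 2.06% of all tested genes were called in the gate and 0.307% in the cluster. The calls of Ephb1 and Slit3 were lost without pregnant mouse 1 (edgeR adjusted p = 0.107 and 0.204). In the cluster the ephrin receptor gene Epha3 alone of 39 rose, at 106 and 124 CPM in pregnant and 67.6 and 46.8 CPM in non-pregnant nuclei (0.99 ± 0.19, edgeR adjusted p = 0.03). It was not called there by DESeq2 (adjusted p = 0.0908), nor over all gated nuclei by edgeR (adjusted p = 0.319). Epha3 fell in the other excitatory nuclei (-0.48, edgeR adjusted p = 0.0246), and the difference of the changes was called (1.47, edgeR adjusted p = 1.12e-13). Of 19 cadherin genes 3 rose in all gated nuclei (Pcdh15, Cdh10 and Cdh13) and Cdh18 fell, and in the cluster Cdh13 alone of 19 rose (1.08 ± 0.21, edgeR adjusted p = 0.0372), a call that was lost without pregnant mouse 2 (0.0958) and not made by DESeq2 (adjusted p = 0.147). The gate call of Cdh10 was lost without pregnant mouse 1 (edgeR adjusted p = 0.0506).

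Cortical area and layer factors held Zfpm2 as their only call of 22 in the cluster, where 0.307% of all tested genes were called. In all gated nuclei Zfpm2 and Ikzf2 rose and Sox5 fell, of 24 tested, against 2.06% of all tested genes called. Sox5 was at 631 and 629 CPM in pregnant and 895 and 1065 CPM in non-pregnant mice (-0.64 ± 0.12, edgeR adjusted p = 0.00447), and in the cluster at 795 and 915 CPM against 979 and 1177 CPM (edgeR adjusted p = 0.557). Ikzf2 was at 40.3 and 39.0 CPM in pregnant and 20.1 and 16.8 CPM in non-pregnant NP-like nuclei, where the groups did not overlap but the gene was not called (edgeR adjusted p = 0.123).

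Receptors of pregnancy hormones were not called in NP-like nuclei. Of 16 hormone receptor genes tested 1 rose (the growth hormone receptor gene Ghr) and 1 fell (Rxfp2) in all gated nuclei, and 0 of 16 in the cluster. With 2.06% of all tested genes called in the gate and 0.307% in the cluster, 0 of 16 says little about the list. Ghr lost its call without pregnant mouse 1, pregnant mouse 2 or non-pregnant mouse 1 (edgeR adjusted p = 0.208, 0.0675 and 0.0625). The prolactin receptor gene Prlr was low, at 2.21 and 3.49 CPM in pregnant and 8.22 and 12.0 CPM in non-pregnant NP-like nuclei. The groups did not overlap, but the difference did not pass (-1.77 ± 0.63, edgeR adjusted p = 0.461). Over all gated nuclei Prlr was at 3.39 and 4.72 CPM in pregnant and 5.40 and 7.91 CPM in non-pregnant mice (-0.73 ± 0.40, edgeR adjusted p = 0.521). The progesterone receptor gene Pgr was at 70.6 and 71.5 CPM in pregnant and 64.9 and 57.6 CPM in non-pregnant NP-like nuclei (edgeR adjusted p = 0.918), and over the gate at 81.3 and 82.6 CPM against 64.2 and 65.4 CPM (0.34 ± 0.12, edgeR adjusted p = 0.24), groups that did not overlap in either set. The glucocorticoid receptor gene Nr3c1 was at 189.8 and 190.1 CPM in pregnant and 229 and 233 CPM in non-pregnant NP-like nuclei (edgeR adjusted p = 0.679), and over the gate at 193 and 180.2 CPM against 198 and 200.3 CPM (0.833). Esr1, the oestrogen receptor alpha gene, at 0.907 to 4.16 CPM, and the oxytocin receptor gene Oxtr, at 0.308 CPM in 1 library and 0 in the others, were too low to be tested.

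Genes of transmitter receptors and channels were called in the gate, and in the cluster Oprm1 alone was. Of all tested genes 2.06% were called in the gate and 0.307% in the cluster. At these shares a list without calls, or with a single call, says little about its genes. In all gated nuclei 2 of 23 glutamate receptor genes rose (Gria3 and Grin3a), the GABA receptor gene Gabrb2, 2 of 31 sodium, calcium and HCN channel genes (Cacng3 and Cacnb2), 1 of 22 monoamine and acetylcholine receptor genes (Chrm3) and 1 of 11 peptide receptor genes (Cckbr), of which Trhr fell. Of 44 potassium channel genes Kcnj3 rose and Kcnk2 and Kcnip1 fell. In the cluster no gene was called of 21 glutamate receptor, 29 sodium, calcium and HCN channel, 17 monoamine and acetylcholine receptor, 5 peptide receptor and 42 potassium channel genes tested, and Oprm1 was the 1 opioid gene tested and called there, while none of 3 was called in all gated nuclei. Several of these calls were lost without pregnant mouse 1, with edgeR adjusted p-values of 0.208 for Gria3, 0.264 for Gabrb2, 0.061 for Cacng3, 0.0864 for Cckbr, 0.633 for Kcnj3 and 0.172 for Kcnip1. Without pregnant mouse 2 the calls of Grin3a (0.0787) and Cckbr (0.0523) were lost, and without non-pregnant mouse 1 those of Gabrb2 (0.0773), Cckbr (0.113) and Kcnj3 (0.0595). Kcnk2, which encodes a background potassium channel, was at 93.4 and 107 CPM in pregnant and 173 and 164 CPM in non-pregnant mice over the gate (edgeR adjusted p = 0.000915), and in the cluster at 181 and 208 CPM against 226 and 258 CPM (edgeR adjusted p = 0.647).

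Genes induced by activity, glucocorticoids or stress gave no call in either set, where 2.06% (gate) and 0.307% (cluster) of all tested genes were called. The tests covered 20 activity-induced genes in all gated nuclei and 13 in the cluster, 8 and 6 glucocorticoid-induced genes, and 4 and 3 genes of stress and dissociation. Activity-induced genes summed to 513 to 643 CPM in pregnant NP-like nuclei, within the 361 to 701 CPM of non-pregnant ones. Glucocorticoid-induced genes summed to 480.3 to 612 CPM in pregnant and 428 to 467 CPM in non-pregnant NP-like nuclei, and their median log2 fold change was 0.24 in the cluster.

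The pregnancy effect of the gated nuclei was then set against that of the 17255 other excitatory nuclei, in which 279 of 19824 tested genes (1.41%) were called, 174 higher (0.878%) and 105 lower (0.53%) in pregnant mice. That count was unstable when a library was left out. It fell strongly without either pregnant mouse and rose strongly without either non-pregnant mouse. Such fits take the spread from the other group alone. Of the 30 genes called in NP-like nuclei, 9 were also called in the other excitatory nuclei. A test of the difference itself, with the mouse as a block, called 475 of 19098 genes (2.49%) for all gated nuclei, of which 309 had the higher log2 fold change in the gate (1.62%) and 166 the lower (0.869%). Without pregnant mouse 1 it called 213. For NP-like nuclei it called 157 of 18739 genes (0.838%), with 70 higher (0.374%) and 87 lower (0.464%). Of the 30 genes called in NP-like nuclei 20 were among these 157, including Egfem1 (difference of log2 fold changes 2.84), Alk (2.81), Gpc5 (2.42), Sgcz (1.26) and Cntnap5a (-0.55).

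For all gated nuclei the named gene with the smallest p in that test was Unc13c, which encodes a presynaptic vesicle-priming protein. It was at 104 and 118.1 CPM in pregnant and 136 and 90.7 CPM in non-pregnant gated nuclei, where the groups overlapped. In the other excitatory nuclei it was at 27.0 and 29.4 CPM in pregnant and 7.26 and 6.30 CPM in non-pregnant mice, and it rose (2.06, edgeR adjusted p = 4.82e-05). The difference of the log2 fold changes was -2.03 ± 0.13 for all gated nuclei (edgeR adjusted p = 1.15e-20) and -1.73 for NP-like nuclei (edgeR adjusted p = 2.23e-26). Unc13c is among the leading genes of clusters 14 and 15. Cluster 14 lay in the other excitatory nuclei for the most part and held 192 and 132 nuclei in pregnant mice against 1 and 0 in non-pregnant mice. Cluster 15 had 0 gated nuclei and held 114 and 178 nuclei in pregnant mice against 0 and 0 in non-pregnant mice. The part of such clusters in the difference was not tested.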

How the data were processed

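The deposited values are whole-number UMI counts per gene and nucleus, made by the authors with Cell Ranger 10.0.0 on GRCm39 per the submitters' processing notes. Of 26816 barcodes, 26350 were kept. Gated nuclei were summed per library and tested with edgeR 4.0.16 (quasi-likelihood, robust, TMM, filterByExpr with minimum count 10) under R 4.3.3, with Benjamini-Hochberg adjustment over all tested genes; a term for nuclei class by pregnancy, in a fit with the mouse as a block, tested differences from other excitatory nuclei. CPM values per library divide a gene's summed count by a scaled total. This is the total over the genes that passed the filter, times the TMM factor of the library. CPM values of whole clusters divide by the plain total of the cluster. Excitatory nuclei were clustered by Leiden (leidenalg 0.10.2) on 2000 variable genes, 30 principal components and 20 neighbours at resolution 1 (27 clusters) or 2 (38). This clustering saw the tested genes. Doublets were scored against 2 simulated doublets per nucleus over 60 neighbours, and kept except in an alternative that left out the top 5%. Free RNA was not subtracted. Kept barcodes shared by 2 libraries numbered 16 to 27 per pair, with none among gated nuclei. On simulated counts for all gated nuclei, 24.5%, 86.5% and 100% of 200 genes changed by 1.5-fold, 2-fold and 4-fold were recovered. The difference test recovered 0.5%, 63.5% and 100% of them. The changed genes were drawn from those with higher counts, and all genes had a common dispersion, so recovery of low-count genes was not measured. The NP-like cluster was not simulated.

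Members and gene lists were chosen with earlier results of these data known. Named genes are 12 rising and 12 falling called genes of smallest p whose groups did not overlap, the 6 with the smallest p in the interaction, called members of the 28 lists (up to 6) with up to 3 others, the markers and 5 hormone receptors; predicted and gate genes were left out. Some results are not reported here. Genes called in the cluster were added after seeing the data. Alternatives were DESeq2 1.42.0, library totals, upper-quartile scaling, no filter, other gates, thinning, a replicate block and leaving out each library.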

Additional observations from a re-analysis of the deposited data

Results flagged for a closer look

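The pregnancy effect differed between all gated nuclei and the other excitatory nuclei for 475 genes by edgeR's interaction test. The 6 named ones by smallest p were Unc13c, Sorcs3, Rnf152, Trabd2b, Dgkb and Rgs20. The difference of log2 fold changes, gated minus other excitatory nuclei, was -2.03 for Unc13c and 1.69 for Sorcs3. It was -1.60 for Rnf152, which encodes a ubiquitin ligase, with 64.6 and 69.0 CPM in pregnant and 103 and 91.2 CPM in non-pregnant gated nuclei, against 17.3 and 17.1 CPM in pregnant and 7.37 and 8.70 CPM in non-pregnant other excitatory nuclei. It was -1.50 for Trabd2b, which encodes a protease that acts on Wnt proteins, and 1.07 for Dgkb, which encodes a diacylglycerol kinase. For Rgs20, a regulator of G-protein signalling, it was 1.60. In NP-like nuclei the differences were -1.73, -1.15 and -1.33 for Unc13c, Rnf152 and Trabd2b, which were called by edgeR. They were 0.28, 0.23 and 0.84 for Sorcs3, Dgkb and Rgs20, which were not. Unc13c and Rnf152 are among the leading genes of cluster 15, which had 0 gated nuclei. That cluster held 114 and 178 nuclei in pregnant mice against 0 and 0 in non-pregnant mice. Its part in the differences was not tested.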

How the results depend on the processing

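In all gated nuclei 259 genes were called, and 258 with library totals alone, 254 with upper-quartile scaling, 257 and 211 with the gate at 3 and 8 UMIs and 279 without the top doublet scores. DESeq2 called 152, no low-count filter 528, a gate that also asked for Slc17a8 or Lypd1 153, thinning to 10000 UMIs 48, the NP-like cluster 30 and at resolution 2 33; leaving out each mouse gave 193 to 566. In NP-like nuclei 30 were called, 33 at resolution 2, 26 with DESeq2 (18 of them among the 30), 87 without the top doublet scores and 57 to 153 without each mouse. Thinning and the cluster hold fewer UMIs; for the rest the cause was not tested. In other excitatory nuclei 279 became 573 with DESeq2, 431 with upper-quartile scaling, 787 with no filter and 3 to 2134 without each mouse. The difference test called 475, and 213 to 576 without each mouse and 157 for the cluster. The share ratio of 2.71 ran from 1.80 to 3.03 under its alternatives.

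With the replicate block 442, 58 and 456 genes were called in all gated, NP-like and other excitatory nuclei. In all gated nuclei same-numbered libraries deviated with a correlation of 0.0126, so no shared deviation was seen. This value cannot tell whether the mice were handled in pairs.

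Log2 fold changes that turned sign in the cluster were Zfp804b -0.33, Sorcs3 -0.034, Sphkap -0.40 (-0.26 at resolution 2), Lrrtm4 0.78 (0.90), Bcl11b 0.050 (0.010), Kcnip1 0.12 (0.071) and Flrt2 -0.0089 (-0.0044), and at resolution 2 Klhl1 0.50 and Enpp2 -0.016. With Slc17a8 or Lypd1 in the gate Klhl1 was 0.13, Lrrtm4 1.37 and Deptor -0.12, and after thinning Synpr -0.051. With 2 mice per group, changes below 2-fold were often missed in simulation.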
